A study of Bos indicus x Bos taurus with 45 samples.

Results

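The 4 small RNA count tables of the series hold 63 entries whose names start with bta-miR-temp, out of 603 miRNAs listed over all tables. They were chosen by that name alone, with no measured value. All 63 were listed in liver, where they were 63 of 563 entries. Kidney listed 33 of 436, skeletal muscle 34 of 439 and tongue 37 of 460. miR-temp82-3p had nearly the same counts as miR-temp34-3p, and miR-temp94-3p as miR-temp81-5p. Each pair is counted once below, under the name of the member with the lower number, which leaves 61 entries in liver, 31 in kidney, 32 in muscle and 35 in tongue.

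MicroRNAs (miRNAs) are short RNAs cut from hairpin precursors, and the ending 5p or 3p says which arm of the hairpin the mature strand comes from. The mature strand guides an Argonaute protein to partly complementary sites in messenger RNAs, which lowers their translation or stability. Registered miRNAs carry a miRBase identifier, while entries with a provisional name have none, and their targets and functions are not established here.

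The study sequenced small RNA from tissues of Bos indicus x Bos taurus fetuses at about day 105 of gestation. Control fetuses were conceived by artificial insemination. LOS fetuses had large offspring syndrome, which is fetal overgrowth that can follow assisted reproduction in ruminants, and ART fetuses came from assisted reproduction with a normal phenotype. There were 4 control and 4 LOS libraries each of kidney and skeletal muscle, 5 control, 4 LOS and 4 ART libraries of liver, and 9 control and 7 LOS libraries of tongue. Sex is used for tongue only, where control 1 to 5 and LOS 1 to 4 were female. Every group shares the cross and the gestation stage, and only liver has normal-sized assisted-reproduction fetuses, so conception method and overgrowth cannot be told apart in the other tissues.

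The entries carried 60 distinct numbers between 1 and 104, of which 3 (8, 10 and 23) had both arms listed. Arms were 34 5p and 29 3p. None of the 63 carried a registry identifier, against 379 of 500 other entries in liver, 308 of 403 in kidney, 307 of 405 in muscle and 316 of 423 in tongue. The precursor column read "mixed" for 6 of them, which were miR-temp3-5p, miR-temp5-3p, miR-temp6-3p, miR-temp13-3p, miR-temp32-5p and miR-temp88-5p. It also read so for many other entries. In liver it did for 6 of 63, against 56 of 500 others, and in kidney for 5 of 33, against 50 of 403. In muscle it did for 5 of 34, against 51 of 405, and in tongue for 4 of 37, against 49 of 423.

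These names were listed in fewer tissues than the other names. Listed in every table were 28 of 63 (44.4%), against 346 of 540 other entries (64.1%). In liver alone 21 (33.3%) were listed, against 95 of 540 other entries (17.6%) that were listed in 1 table. The tables hold no count of 0, so an entry missing from a table was not shown to be absent from that tissue.

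Depth and tissue identity were checked once. Liver libraries were the shallowest, with 3379816 to 4976770 listed reads, and tongue libraries the deepest, with 9357833 to 13822348. Muscle had 4744968 to 6456252 and kidney 6132982 to 9170756. The hepatocyte markers miR-122 and miR-885 summed to 14465 to 19696 CPM (counts per 1000000 listed reads) over the liver libraries and to at most 29.6 CPM in kidney and muscle, and neither was listed in tongue. The lowest count of a temporary-name entry in any library was 3 in liver, 8 in muscle, 11 in tongue and 20 in kidney.

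Most of the temporary-name entries were rare, and a few were among the more abundant miRNAs of a tissue. Levels are given as CPM without scaling factors, which makes them comparable between libraries only as shares of listed reads. Tongue has other processing notes than the other tissues, so tissue and processing cannot be told apart in its levels, ranks and ratios. The median entry stood at 35.8 CPM in liver, 15.7 in kidney, 29.0 in muscle and 25.7 in tongue, against 77.6, 79.0, 95.6 and 118 CPM for the other listed miRNAs. At 100 CPM or more were 20 of 61 in liver, 8 of 35 in tongue, 6 of 32 in muscle and 5 of 31 in kidney.

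miR-temp63-3p was the most abundant, with a mean of 28034 ± 1245 CPM (SD, n = 13) in liver, the 9th highest level of the 563 entries there. It stood at 3172 ± 558 CPM (n = 8) in kidney, 2590 ± 674 CPM (n = 8) in muscle and 2734 ± 722 CPM (n = 16) in tongue. The lowest liver library, at 26072 CPM, was above the highest library of any other tissue, at 4143 CPM in tongue. Kidney, muscle and tongue overlapped, with 2484 to 3946, 1545 to 3629 and 1781 to 4143 CPM.

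miR-temp1-5p had the opposite order, with liver lowest. Its mean was 459 ± 164 CPM in liver, 2396 ± 296 CPM in kidney, 3740 ± 388 CPM in tongue and 3914 ± 446 CPM in muscle. Kidney libraries, at 2191 to 2933 CPM, lay below all muscle libraries, at 3282 to 4789 CPM, and below all tongue libraries, at 3145 to 4464 CPM. Muscle and tongue overlapped.

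**Figure D1:**
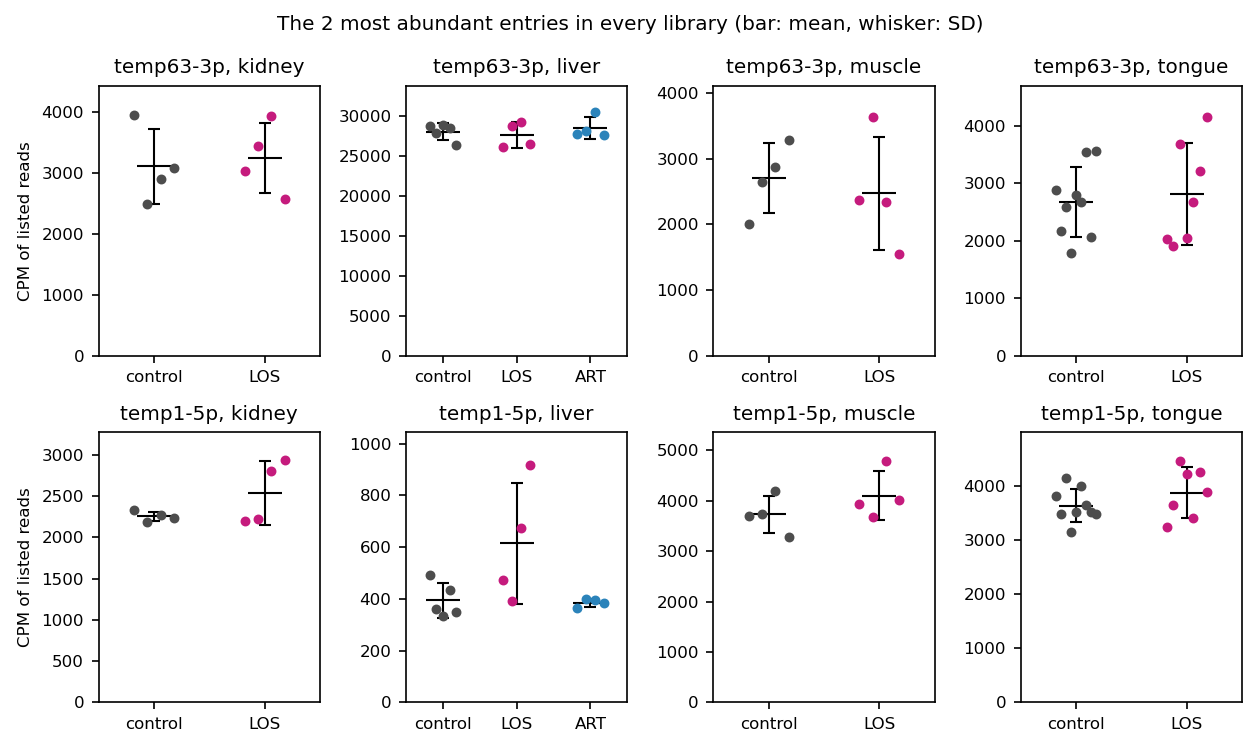
CPM of listed reads (vertical axes, each from 0) for miR-temp63-3p (top) and miR-temp1-5p (bottom) in kidney, liver, muscle and tongue, one point per library, with the mean (bar) and SD (whisker) of each group. The liver panel of miR-temp63-3p spans 26072 to 30433 CPM, while miR-temp1-5p is lowest in liver, at 334 to 918 CPM.

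Next in liver came miR-temp91-5p at 2170 ± 747 CPM, miR-temp33-5p at 805 ± 75.4 CPM, miR-temp97-5p at 787 ± 398 CPM, and miR-temp81-5p at 680 ± 359 CPM. miR-temp90-3p and miR-temp5-3p followed at 592 ± 90.9 and 527 ± 57.4 CPM (n = 13 each). Over the liver libraries miR-temp33-5p ran from 629 to 944 CPM and miR-temp90-3p from 476 to 780 CPM. miR-temp97-5p and miR-temp81-5p ran from 169 to 1657 CPM and from 135 to 1468 CPM. miR-temp5-3p was at 6.11 ± 1.05 CPM in kidney (n = 8) and was not listed in muscle or tongue.

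**Figure D2:**
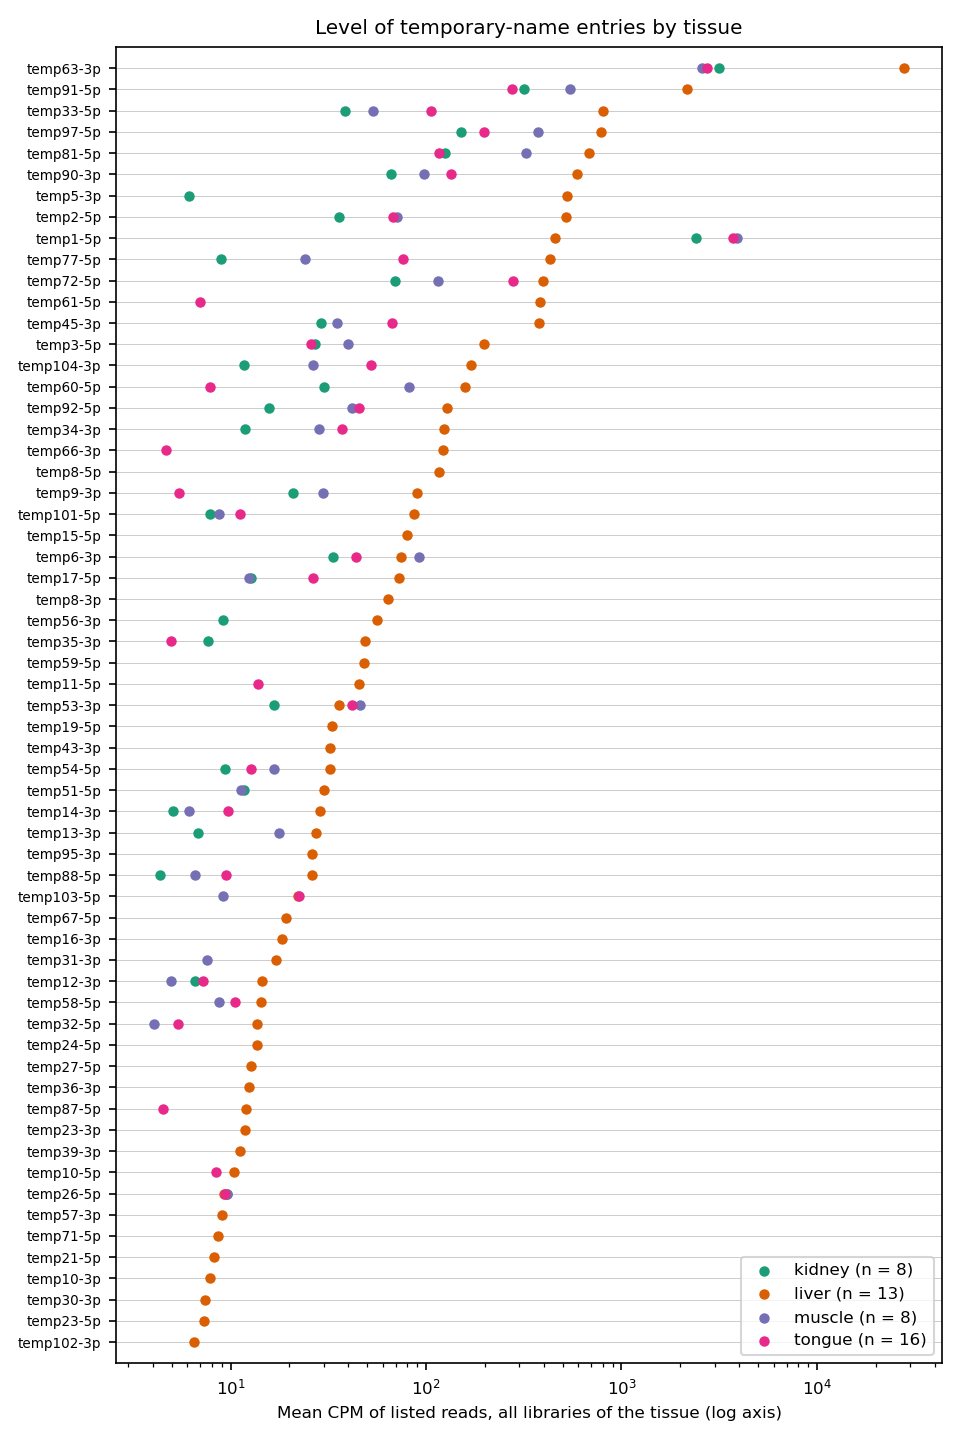
Mean CPM of listed reads over all libraries of a tissue (horizontal log axis) for the 61 entries, one row per entry, ordered by the liver level, one colour per tissue. Liver points run from 6.5 CPM for miR-temp102-3p to 28034 CPM for miR-temp63-3p, and for most entries with several points the liver point is farthest right.

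Of the 26 entries in all 4 tables, with pairs counted once, 22 had their highest mean in control liver, 3 in muscle, 1 in kidney and 0 in tongue. Tongue is ranked here despite its other processing notes. Of the 346 other miRNAs in all 4 tables, 180 (52.0%) were highest in liver, 95 (27.5%) in tongue, 38 (11.0%) in muscle and 33 (9.54%) in kidney. The most frequent order, in 12 entries, was liver, tongue, muscle and then kidney. With TMM scaling factors (trimmed mean of M values, which correct for a few dominant miRNAs) over the 374 shared miRNAs, 18 of the 26 were highest in liver, 6 in muscle, 1 in kidney and 1 in tongue, against 104 of 346 others (30.1%) in liver.

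Tissue differences were tested between the 4 control fetuses numbered alike in kidney, liver and muscle, over the 389 miRNAs these tables share, of which 28 were temporary-name entries. Tongue was left out of these tests because its processing notes differ. The TMM factors in this fit were wide, at 0.746 to 1.58. Leaving them out moved the median log2 difference of all miRNAs from 0.19 to 1.09 for liver against kidney and from -0.00198 to 0.84 for liver against muscle, so the differences below are relative to the TMM-scaled median.

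In liver against kidney 24 of 28 entries were higher and 2 lower at an adjusted p under 0.05, with 89.2% of all miRNAs called (48.3% higher and 40.9% lower). Their median log2 difference was 1.86, against 0.19 for all miRNAs. Without factors 26 were higher and 1 lower, and the calls over all miRNAs went from 188 higher and 159 lower to 256 and 92. miR-temp77-5p had the largest difference of the called entries, at 412 ± 16.9 CPM in liver and 10.5 ± 2.28 CPM in kidney (SD, n = 4), a log2 difference of 4.42 ± 0.15 (SE; edgeR's quasi-likelihood test, Benjamini-Hochberg adjusted p = 6.83e-10). miR-temp33-5p, miR-temp45-3p, miR-temp101-5p, miR-temp104-3p and miR-temp2-5p followed at 3.47, 3.14, 2.75, 2.70 and 2.65. The entries lower in liver were miR-temp1-5p at -3.37 ± 0.12 and miR-temp26-5p at -1.37 ± 0.40, which without factors stood at -0.48 and was not called (adjusted p = 0.266).

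In liver against muscle 20 of 28 were higher and 4 lower, with 86.1% of all miRNAs called (44.2% higher and 41.9% lower). The median of the entries was 1.15. Without factors the entries split 24 higher and 2 lower and all miRNAs went from 172 and 163 to 243 and 107. miR-temp77-5p again led the higher ones at 3.27 ± 0.14, with muscle at 24.2 ± 3.81 CPM, and miR-temp33-5p followed at 3.17 ± 0.16. Lower in liver were miR-temp1-5p at -4.04 ± 0.13, miR-temp6-3p at -1.22 ± 0.10, miR-temp26-5p at -0.98 ± 0.42 and miR-temp53-3p at -0.91 ± 0.23. Without factors miR-temp26-5p stood at -0.15 (adjusted p = 0.748) and miR-temp53-3p at -0.08 (adjusted p = 0.764), so neither was called, and miR-temp26-5p also lost its call without control 1, control 2 or control 4. For miR-temp6-3p the CPM were 69.4 ± 5.34 in liver and 90.9 ± 10.9 in muscle.

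In kidney against muscle 1 of 28 was higher and 19 were lower, with 79.4% of all miRNAs called (37.3% higher and 42.2% lower), and the median of the entries was -0.72. miR-temp6-3p at -1.53 ± 0.10, miR-temp53-3p at -1.22 ± 0.23, miR-temp34-3p at -1.19 ± 0.17 and miR-temp104-3p at -1.15 ± 0.12 were among the lower ones. The entry that was higher in kidney was miR-temp12-3p, at 0.52 ± 0.18, a call that was lost without control 2, without control 4 and without the fetus block (adjusted p up to 0.117). These comparisons share libraries, so the values are given side by side and are not independent.

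Near-identical counts limit how some entries can be read. miR-temp81-5p and miR-temp94-3p differed by at most 0.666% in any library, and miR-temp34-3p and miR-temp82-3p by at most 8.51%. miR-temp72-5p and the registered miR-1260b lay within 11.1% of each other in all 45 libraries, so reads may have been counted for both and the level of miR-temp72-5p is uncertain. miR-temp97-5p was 1.08 to 1.30 times miR-temp81-5p in kidney, liver and muscle. In tongue that ratio was 1.33 to 2.67, highest in control 9.

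miR-temp63-3p and miR-27b were alike in liver only. The ratio of miR-temp63-3p to miR-27b was 0.901 to 1.1 over the 13 liver libraries, 0.104 to 0.199 in kidney, 0.117 to 0.25 in muscle and 0.0464 to 0.123 in tongue. In liver against kidney miR-27b was lower, at a log2 difference of -0.66 ± 0.09, where miR-temp63-3p was higher, at 2.32 ± 0.12.

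Likeness was measured as the SD of the log2 ratio between 2 entries over libraries, where a small value means that the levels keep a fixed ratio. Over the 45 libraries miR-temp1-5p was most like let-7c (SD 0.29), against an SD of 1.39 for its own log2 level, and miR-temp104-3p was most like miR-2478 (0.27, against 1.38). miR-temp63-3p was most like miR-temp101-5p (0.37, against 1.57). Within the 13 liver libraries miR-temp1-5p was closest to miR-335 and miR-335-3p (0.14 and 0.18, against 0.42), and miR-temp33-5p to miR-194 (0.09, against 0.14). These are descriptions over libraries that share tissues and groups.

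Both arms were counted for numbers 8, 10 and 23 in liver. The 5p arm of number 8 was 1.63 to 1.89 times the 3p arm in controls, 1.94 to 2.23 times in LOS and 1.57 to 1.99 times in ART, so LOS lay above the controls and overlapped ART. Its 5p and 3p arms had means of 117 and 63.7 CPM over the 13 libraries. The ratio of number 10 was widely spread, at 0.698 to 3.72, with means of 10.4 CPM for 5p and 7.82 CPM for 3p, and number 23 had more 3p than 5p in every library.

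In liver, 5 of 61 entries passed the test between LOS and ART, all lower in LOS, which is 8.20%. Over all 563 miRNAs 2.66% were called, and 1.60% were called lower. Among the 61, 47 were lower and 14 higher, and their median log2 difference was -0.23, against -0.000117 for all miRNAs. LOS and ART each had 4 libraries.

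miR-temp34-3p stood at 98.9, 105, 99.1 and 111 CPM in LOS and at 139, 160, 152 and 166 CPM in ART. The groups did not overlap, and controls, at 95.6 to 142 CPM, reached from one to the other. The log2 difference was -0.61 ± 0.11 (SE; edgeR's quasi-likelihood test, Benjamini-Hochberg adjusted p = 0.0118), and its near-identical partner miR-temp82-3p gave -0.60 with the same adjusted p.

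miR-temp77-5p stood at 328, 372, 311 and 390 CPM in LOS and at 537, 611, 404 and 495 CPM in ART. ART 3, the lowest ART library, was above the highest LOS library by a small margin, and the 5 controls lay at 394 to 502 CPM, above all LOS libraries. The log2 difference between LOS and ART was -0.58 ± 0.11 (edgeR's quasi-likelihood test, Benjamini-Hochberg adjusted p = 0.0138).

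miR-temp32-5p stood at 6.63, 9.91, 7.34 and 12 CPM in LOS and at 24.6, 24.9, 31.4 and 12.2 CPM in ART. ART 4 was close to the LOS libraries and to the controls, at 6.46 to 13.1 CPM, and the other ART libraries were above both. The log2 difference was -1.41 ± 0.30 (edgeR's quasi-likelihood test, Benjamini-Hochberg adjusted p = 0.0209).

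miR-temp91-5p, the second most abundant entry in liver, stood at 1324, 1885, 1368 and 2307 CPM in LOS and at 3477, 3378, 3016 and 2411 CPM in ART. All 4 LOS libraries were below all ART libraries, and controls, at 1364 to 2413 CPM, overlapped both groups. The log2 difference was -0.87 ± 0.20 (edgeR's quasi-likelihood test, Benjamini-Hochberg adjusted p = 0.0329).

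miR-temp13-3p stood at 17.1, 21.7, 19.3 and 24.6 CPM in LOS and at 36.7, 41.7, 35.1 and 24.1 CPM in ART. Here the groups overlapped, since LOS 4 was above ART 4. The log2 difference was -0.77 ± 0.18 (edgeR's quasi-likelihood test, Benjamini-Hochberg adjusted p = 0.0375).

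**Figure D3:**
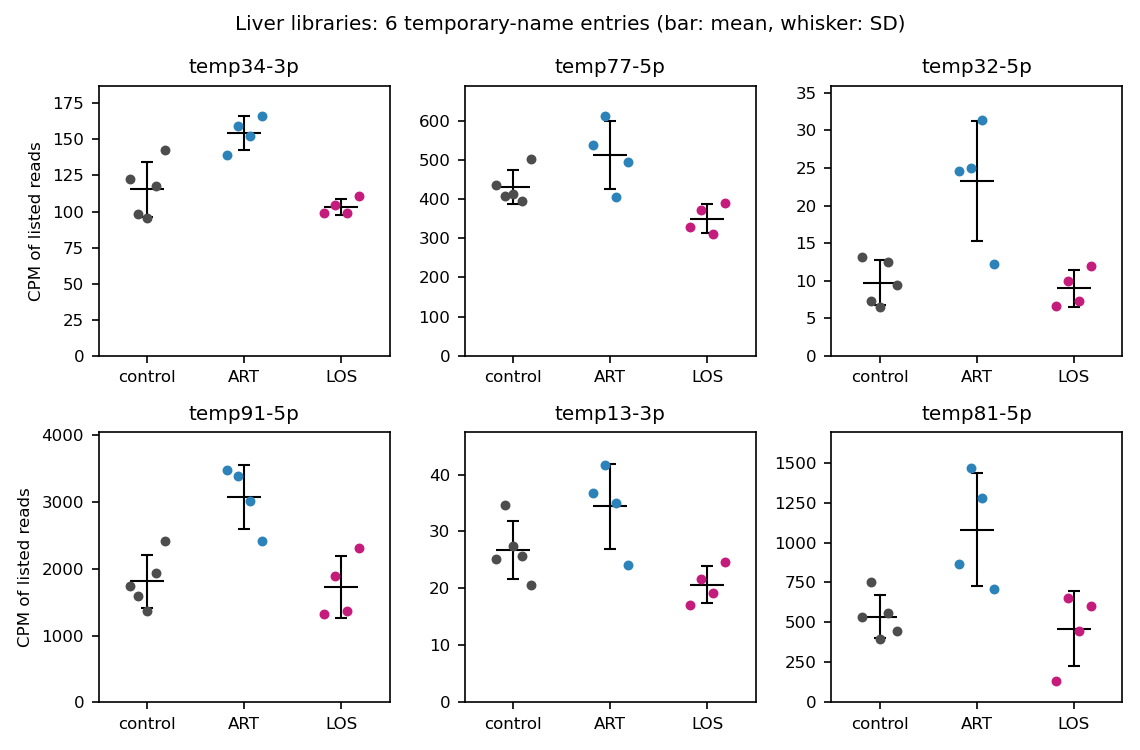
CPM of listed reads (vertical axes, each from 0) in the liver libraries of control, ART and LOS fetuses for the 5 entries called between LOS and ART and for miR-temp81-5p, one point per library, with the mean (bar) and SD (whisker). The ART means lie above both other groups in all 6 panels, and the LOS and control points overlap in all panels but miR-temp77-5p.

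These calls depended on single libraries. Leaving out LOS 1 left 0 of the 5, with miR-temp34-3p at an adjusted p of 0.0535. Leaving out LOS 3, ART 1 or ART 2 left 1 each time, miR-temp34-3p, and leaving out ART 3 left miR-temp34-3p and miR-temp77-5p and added miR-temp36-3p. Without LOS 2, control 3 or control 4 the call of miR-temp13-3p was lost as well. When controls were dropped from the fit, or the replicate number was a block, miR-temp34-3p alone was called. DESeq2 called 9, the same 5 and miR-temp36-3p, miR-temp81-5p, miR-temp92-5p and miR-temp97-5p, and limma-voom called the same 5.

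Further entries had large differences between LOS and ART without passing the test. miR-temp81-5p stood at 135, 656, 447 and 603 CPM in LOS and at 867, 1468, 1277 and 707 CPM in ART, a log2 difference of -1.26 ± 0.39 (edgeR's quasi-likelihood test, adjusted p = 0.115), and miR-temp97-5p gave -1.21 ± 0.37 with the same adjusted p. LOS 1 was far below the other LOS libraries in both. At an unadjusted p under 0.05 were 19 of 61, of which 16 were lower and 3 higher in LOS, against 15.5% of all miRNAs. The 3 higher ones were miR-temp1-5p, miR-temp6-3p and miR-temp16-3p.

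Cell type markers in the same libraries did not pass the test between LOS and ART (edgeR's quasi-likelihood test, lowest adjusted p 0.101, for miR-122). Smooth muscle and fibroblast markers summed to 74789 to 87907 CPM in liver LOS, 65888 to 75116 in ART and 58002 to 76230 in controls, and the hepatocyte sum was 14465 to 18943, 18226 to 19696 and 17693 to 19659 CPM. The first sum was mostly miR-143, with a mean of 68935 CPM over the liver libraries. LOS and ART overlapped in both sums, and also in the red cell, white blood cell, endothelium and epithelium sums. Singly, the log2 difference between LOS and ART was 0.15 ± 0.08 (SE) for miR-143 and 0.06 ± 0.08 for miR-145. It was larger for miR-199a-3p, at 0.46 ± 0.22, and for miR-214, at 0.58 ± 0.25. For miR-122 it was -0.23 ± 0.07 and for miR-885 -0.07 ± 0.17. Among 5 listed miRNAs whose reads can overlap other RNA classes (miR-1260b, miR-1246, miR-2904, miR-2478 and miR-664b), 4 were lower in LOS than in ART and miR-2904 passed the test, at -1.03 ± 0.21. Listed reads were 3733598 to 4976770 in LOS and 3936697 to 4796102 in ART. The part of cell makeup, other RNA classes or depth in the differences was not tested, and fewer cells of a type cannot be told apart from less RNA per cell. Of 41 miR-2284 and miR-2285 entries, a ruminant family of mostly rare miRNAs, 20 were higher and 21 lower in LOS than in ART, and 0 passed the test, with 2 at an unadjusted p under 0.05.

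Between ART and control livers 0 of 61 entries passed the test, as did 0% of all miRNAs. Unadjusted, 11 had a p under 0.05, all higher in ART, against 8.17% of all miRNAs, and DESeq2 called 4 and limma-voom 0. The median log2 difference of the entries was 0.13, with 41 higher and 20 lower, against 0.00336 for all miRNAs. miR-temp43-3p stood at 40.9, 43.9, 38.1 and 53.6 CPM in ART and at 14.9 to 26.4 CPM in the 5 controls, so the groups did not overlap. Its log2 difference was 1.24 ± 0.30 (edgeR's quasi-likelihood test, Benjamini-Hochberg adjusted p = 0.137). miR-temp32-5p (1.28 ± 0.28), miR-temp91-5p (0.78 ± 0.18) and miR-temp34-3p (0.44 ± 0.11) had the same adjusted p, and for each of them 3 of 4 ART libraries were above all controls. Without control 5, 3 were called (miR-temp34-3p, miR-temp91-5p and miR-temp104-3p), and without ART 4, miR-temp32-5p was.

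Between LOS and control livers 0 of 61 passed the test, against 1.24% of all miRNAs. Unadjusted, 13 had a p under 0.05, 4 higher and 9 lower in LOS, against 14% of all miRNAs, and DESeq2 called 2, miR-temp36-3p and miR-temp43-3p, and limma-voom 0. The median of the entries was -0.10, with 42 lower and 19 higher. The share of listed reads in temporary-name entries was 3.76% ± 0.101 in control (n = 5), 3.68% ± 0.254 in LOS (n = 4) and 4.10% ± 0.238 in ART livers (n = 4).

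miR-temp36-3p, listed in liver only, stood at 0.603, 6.43, 6.19 and 1.71 CPM in LOS and at 8.79 to 24.0 CPM in controls. All LOS libraries were below all controls, and the count of 3 reads in LOS 1 was the lowest of any entry. Its log2 difference was -2.04 ± 0.60 (edgeR's quasi-likelihood test, Benjamini-Hochberg adjusted p = 0.138). ART livers, at 6.92 to 30.9 CPM, overlapped the controls.

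miR-temp31-3p stood at 11.3, 17.4, 12.8 and 12.6 CPM in LOS and at 16.4 to 20.9 CPM in controls, and 3 of 4 LOS libraries were below all controls. The log2 difference was -0.55 ± 0.16 (edgeR's quasi-likelihood test, adjusted p = 0.131). miR-temp43-3p was at 18.4 to 61.5 CPM in LOS, a difference of 0.97 ± 0.30, and overlapped the controls. miR-temp1-5p was at 473, 393, 673 and 918 CPM in LOS and 334 to 493 CPM in controls, a difference of 0.63 ± 0.20, and miR-335, the entry most like it in liver, differed by 0.47 ± 0.21. Without LOS 2, miR-temp1-5p and miR-temp31-3p were called, and without LOS 4, miR-temp43-3p was.

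**Figure D4:**
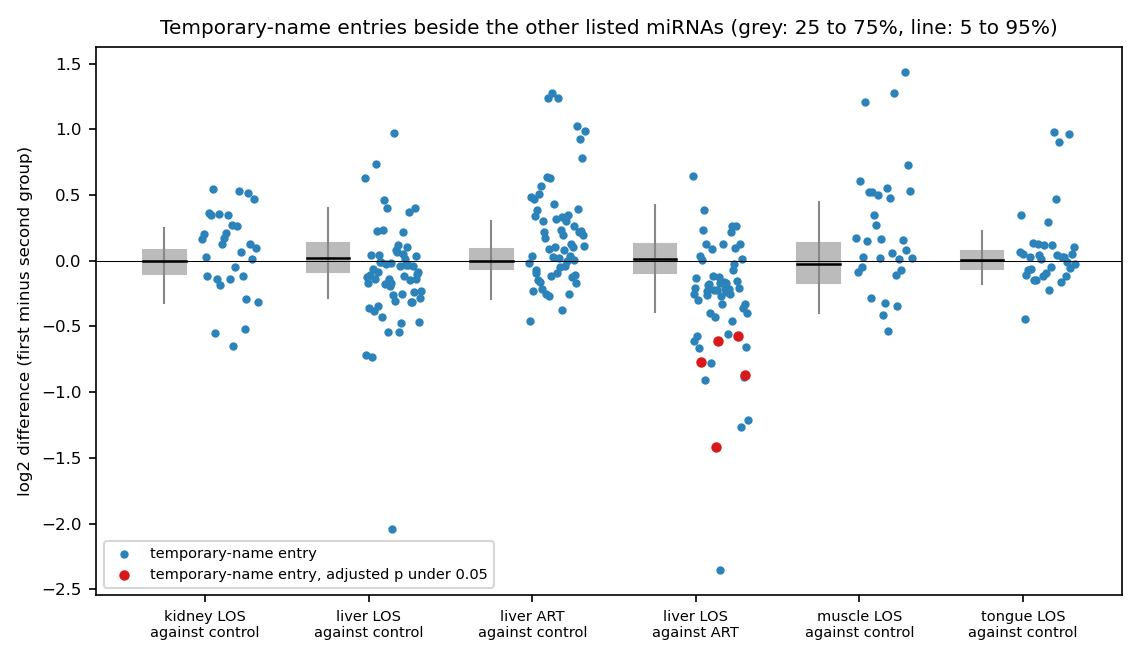
Fitted log2 differences (vertical axis, first minus second group) in 6 comparisons. Blue points are temporary-name entries, red points those with an adjusted p under 0.05, and grey boxes and lines the middle 50% and 90% of the other listed miRNAs. In liver LOS against ART the middle 50% of the entries lay between -0.56 and -0.07 and that of the other miRNAs between -0.09 and 0.13, and the 5 red points are all below 0.

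In skeletal muscle 0 of 32 entries passed the test, as did 0% of all miRNAs. At an unadjusted p under 0.05 were 7, 6 of them higher in LOS, against 13.2% of all miRNAs, and DESeq2 called 3 (miR-temp9-3p, miR-temp60-5p and miR-temp91-5p) and limma-voom 0. The median of the entries was 0.15, with 23 higher and 9 lower, against -0.01 for all miRNAs. miR-temp91-5p stood at 331, 351, 557 and 435 CPM in controls and at 608, 804, 778 and 516 CPM in LOS. LOS 4 lay within the control range and the other 3 above it, and the log2 difference was 0.72 ± 0.19 (edgeR's quasi-likelihood test, adjusted p = 0.230).

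miR-temp60-5p stood at 30.2 to 65.3 CPM in control muscle and at 88.4, 202, 110 and 61.4 CPM in LOS, a log2 difference of 1.28 ± 0.38 with the same adjusted p. miR-temp9-3p was at 12.6 to 19.6 CPM in controls and at 32.5, 98.2, 24.5 and 17.2 CPM in LOS. LOS 2 was highest in both. miR-temp72-5p was lower in all 4 LOS libraries, at 93.3 to 112 CPM, than in any control, at 121 to 148 CPM, a difference of -0.34 ± 0.12 (edgeR's quasi-likelihood test, adjusted p = 0.282). The near-identical miR-1260b differed by -0.34 ± 0.12 as well, so the difference cannot be assigned to either entry.

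In kidney 0 of 31 entries passed the test, as did 0% of all miRNAs by edgeR, and 0 entries by DESeq2 or limma-voom. At an unadjusted p under 0.05 were 5, 3 higher and 2 lower, against 7.57% of all miRNAs. miR-temp2-5p stood at 54.2, 32.5, 46.1 and 38 CPM in controls and at 29.4, 30.0, 35.7 and 21.8 CPM in LOS. LOS 3 lay within the control range and the others below it, and the log2 difference was -0.55 ± 0.17 (edgeR's quasi-likelihood test, adjusted p = 0.368). miR-temp77-5p, near 10 CPM in control kidney, differed by -0.52 ± 0.20, and miR-temp3-5p, at 20.9 to 26.3 CPM in controls and 21.3 to 34.5 CPM in LOS, by 0.36 ± 0.15.

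In tongue 0 of 35 entries passed the test between LOS and control, as did 0% of all miRNAs, and neither DESeq2 nor limma-voom called any. There were 2 with an unadjusted p under 0.05, against 5.43% of all miRNAs. miR-temp60-5p had a lowest, median and highest level of 3.20, 4.86 and 9.95 CPM in the 9 controls and of 1.2, 10.7 and 25.1 CPM in the 7 LOS libraries, so LOS held both the lowest and the highest library, and the log2 difference was 0.98 ± 0.42 (edgeR's quasi-likelihood test, adjusted p = 0.843). miR-temp72-5p had 232, 292 and 322 CPM in controls and 244, 253 and 306 CPM in LOS, a difference of -0.17 ± 0.07. That of the near-identical miR-1260b was -0.18 ± 0.07, so here too the difference cannot be assigned to either entry.

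Between male and female tongues 0 of 35 passed the test, as did 0% of all miRNAs, and DESeq2 and limma-voom called none of the entries. There were 3 with an unadjusted p under 0.05, against 13.5% of all miRNAs. The male minus female difference of miR-temp104-3p was -0.23 ± 0.09, with means of 47.9 ± 5.74 CPM in males and 55.8 ± 4.29 CPM in females. That of miR-temp63-3p was 0.36 ± 0.15, with 3124 ± 700 and 2431 ± 612 CPM (edgeR's quasi-likelihood test, adjusted p = 0.313 and 0.331). The difference of miR-temp103-5p, 0.91 ± 0.39, held control 9 at 112 CPM and was 0.18 without it.

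The LOS difference in tongue was compared between the sexes with an interaction term. None of the 35 entries passed (0 calls, 0% of all miRNAs), and limma-voom called 0. Unadjusted, 10 of 35 (28.6%) had a p under 0.05, against 4.35% of all miRNAs, or 20 of 460, of which 9 were among the 423 other miRNAs. In 9 of the 10 the LOS difference was lower in males than in females. The count was 6 without LOS 3, 6 without LOS 5, 7 with limma-voom and 6 among miRNAs with a mean of at least 10 CPM.

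miR-temp66-3p had the lowest p of these. In females it was at 1.34 to 3.06 CPM in controls and at 12.1, 1.5, 16.3 and 7.74 CPM in LOS, and in males at 2.79 to 6.30 CPM in controls and 1.27 to 3.90 CPM in LOS. LOS 2 was within the control range of its sex and the other female LOS libraries were above it. The interaction was -2.97 ± 0.77 on the log2 scale (edgeR's quasi-likelihood test, adjusted p = 0.658) and among the alternatives run passed without LOS 2 alone, at an adjusted p of 0.0122.

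miR-temp97-5p gave -1.19 ± 0.36, with means of 168 and 233 CPM in female controls and LOS and of 237 and 149 CPM in male controls and LOS. Control 9, at 394 CPM, raised the male control mean, the other male controls being at 166 to 219 CPM. The interaction ran from -1.34 to -0.81 over the alternatives. miR-temp54-5p was the exception in direction, at 1.38 ± 0.47. It stood at 5.98 to 8.87 CPM in female LOS and at 17.6 to 18.4 CPM in male LOS, which did not overlap, and at 4.23 to 18.4 and 8.93 to 19.2 CPM in female and male controls, which did.

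Across kidney, liver and muscle, the LOS difference was compared between tissues for 28 entries. With edgeR's quasi-likelihood test 0 entries passed, against 1.29% of all miRNAs, and 4 had an unadjusted p under 0.05, against 18.8%; limma-voom called 0. miR-temp92-5p had the lowest adjusted p, at 0.0878, with the LOS difference lower in liver than in kidney by -0.63 and higher in muscle by 0.32. Its means in control and LOS were 15.2 and 16.3 CPM in kidney, 134 and 98.0 CPM in liver, and 34.3 and 49.0 CPM in muscle. The liver control mean is over 5 libraries, of which the test left out control 5. miR-temp60-5p followed at an adjusted p of 0.130, with differences from kidney of -0.82 in liver and 0.67 in muscle, and both were called without LOS fetus 4, at 0.0373.

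Over all levels, temporary-name entries had a wider median spread between libraries of a group than the other miRNAs, which were more abundant in the median. The median within-group SD of log2 CPM was 0.388 in muscle, 0.344 in tongue, 0.340 in liver and 0.308 in kidney, against 0.202, 0.200, 0.170 and 0.191 for the others, given as a description with no test. At 100 CPM or more, where counting error is small, the medians were 0.263 for 20 entries and 0.110 for 233 others in liver, and 0.321 for 8 and 0.176 for 223 in tongue. Under 10 CPM they were nearly alike in muscle, at 0.354 for 9 entries and 0.35 for 53 others, and close in kidney, at 0.344 and 0.31. In that band they were 0.474 and 0.327 in liver and 0.646 and 0.31 in tongue. In liver the most variable of the named entries was miR-temp26-5p, with an SD of 1.38, the second highest of 563.

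Single libraries held many of the extremes. Liver LOS 1 was the lowest of 13 libraries for 27 of 61 entries (44.3%), against 7.20% of the 500 other miRNAs, and liver ART 2 was the highest for 16 (26.2%), against 5.80%. Muscle LOS 2 was the highest of 8 libraries for 17 of 32 (53.1%), against 16.8%. In tongue control 4 was the lowest of 16 libraries for 11 of 35 (31.4%), against 25.3%, LOS 5 the lowest for 8 (22.9%), against 2.13%, and LOS 3 the highest for 7 (20%), against 14.4%. Liver LOS 1 had the most listed reads of the liver libraries, at 4976770, and the lowest share of them in temporary-name entries, at 3.31%.

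**Figure D5:**
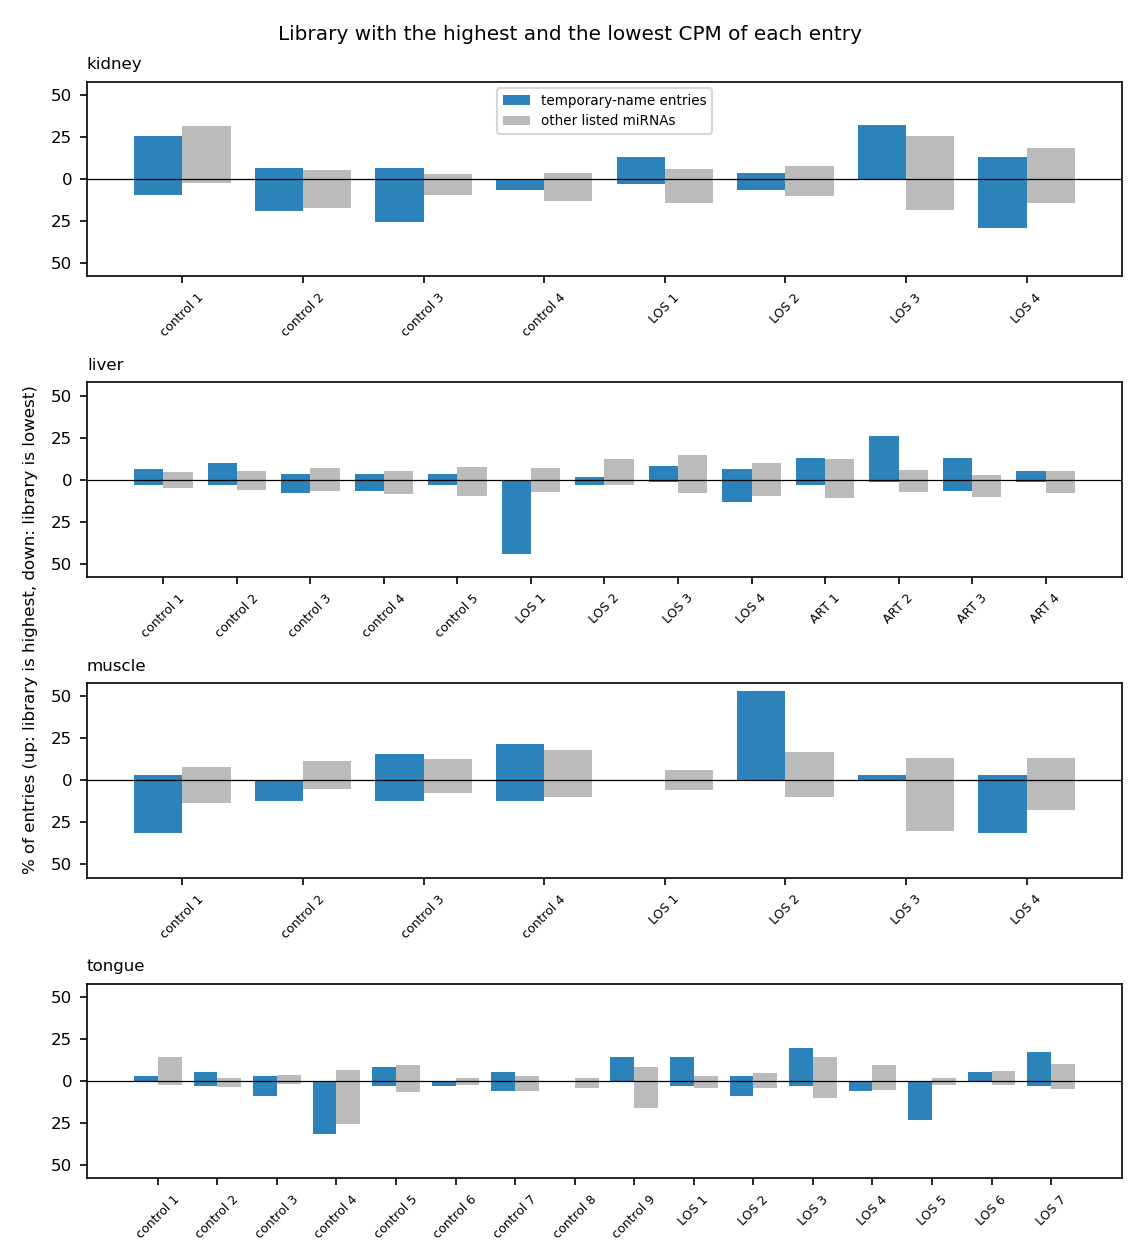
For each library, the percent of entries for which it had the highest (up) or the lowest (down) CPM of its tissue, for temporary-name entries (blue) and other listed miRNAs (grey). The longest blue bars are liver LOS 1 downward at 44.3% and muscle LOS 2 upward at 53.1%.

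Of the 21 entries listed in liver only, the 6 most abundant were miR-temp8-5p at 117 ± 13.2 CPM, miR-temp15-5p at 79.8 ± 30.6, miR-temp8-3p at 63.7 ± 9.75, miR-temp59-5p at 48.4 ± 8.47, miR-temp19-5p at 33.2 ± 5.09 and miR-temp43-3p at 32.3 ± 15.6 CPM (SD, n = 13). The lowest was miR-temp102-3p at 6.5 ± 1.45 CPM. None of the 21 passed the test in a liver comparison (edgeR's quasi-likelihood test).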

How the data were processed

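Small RNA libraries of 45 fetal tissue samples were analysed. The values deposited by the authors are raw counts of reads for each miRNA. The submitters' processing notes name Bowtie and build UMD3.1 for all tissues and cutadapt 1.18 for tongue. Not given in the sources used here are the counting tool, the rule behind temporary names and any abundance filter. Totals are therefore totals of listed miRNAs. Per the labels' protocols, RNA came from TRIzol extraction and TruSeq small RNA libraries selected on a gel, a selection that affects which small RNAs are counted. Sequences and positions of the entries were not analysed here.

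CPM of listed reads were computed without scaling factors. Tests were edgeR 4.0.16 quasi-likelihood fits (R 4.3.3) on counts with TMM factors and filterByExpr, which kept every listed miRNA, and Benjamini-Hochberg adjustment over the whole table, called under 0.05. SEs are the log2 difference over the square root of F. The 3 liver groups shared a fit, tongue carried a sex term, and tissue fits had the fetus as a block, a number being taken as 1 fetus. Separate dams or processing days are not given, so p-values measure the spread between libraries as labelled. No library was a duplicate (smallest chi-square per degree of freedom within a group 23.9). Alternatives were RLE factors, no factors, other filters, limma-voom (limma 3.58.1), DESeq2 1.42.0, a replicate block and leaving out each library. Each test was checked on simulated counts, where it recovered 81.5% to 99.5% of 200 miRNAs changed by 1 on the log2 scale. Of its calls there, 1.04% to 4.83% were false. Those 200 were drawn from all 389 to 563 miRNAs of a fit, while the LOS, ART and sex comparisons called 0 to 15. Benjamini-Hochberg adjustment is more lenient where many miRNAs change, so the recovery does not carry over to comparisons with few changes. The temporary-name entries had a wider median spread than the others, so the rate is not one for the entries alone.

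Entries are named where called in an LOS, ART or sex comparison, among the 3 lowest p of one, the 8 highest levels of a tissue, the 6 largest called tissue differences each way or the 6 highest listed in 1 tissue, or where both arms or near-identical counts occur. miR-temp16-3p, miR-temp88-5p and miR-temp102-3p fall outside this rule and were named after their values were seen. The entries, lists and tests were chosen with earlier results of these data known.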

Additional observations from a re-analysis of the deposited data

Results flagged for a closer look

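Within groups of 4 to 10 libraries, 15 of 287 groups of values held a library set apart from the rest by Dixon's gap test. Chance gives 1 in 20 only where groups are independent. Entries of the same library are not, so the count cannot be read against chance. Tongue held 7 of the 15, most of them in control 9 and LOS 3, and its part of the 287 groups is not given here. In control 9 miR-temp103-5p stood at 112 CPM, miR-temp26-5p at 24.3 and miR-temp97-5p at 394 CPM, each far above the other controls, and in LOS 3 miR-temp10-5p stood at 25.9, miR-temp32-5p at 20.5 and miR-temp53-3p at 99.7 CPM, far above the other LOS libraries. miR-temp72-5p was low in tongue control 7, at 232 CPM. In liver miR-temp101-5p (96.4 CPM) and miR-temp60-5p (207 CPM) stood apart in LOS 4, and miR-temp104-3p (217 CPM) in control 5. In muscle they were miR-temp45-3p in LOS 2 (67.4 CPM), miR-temp77-5p in LOS 4 (25.8 CPM) and miR-temp17-5p in control 2 (19.0 CPM), and in kidney miR-temp54-5p in control 4 (4.4 CPM) and miR-temp90-3p in LOS 4 (53.5 CPM).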

How the results depend on the processing

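Among 1227 recomputed log2 differences of the named entries 0 changed sign, 1164 kept their side of the threshold, 48 lost their call and 15 gained one. The tissue interaction, whose value is an adjusted p with no sign, is not among them. The entries tallied had low p or were called in these same data, so the kept signs are no support for a difference. The run without a filter repeats the main fit, and miR-temp34-3p and miR-temp82-3p are both tallied. Calls were lost in liver LOS against ART in 10 of 21 alternatives for miR-temp13-3p and in 7 for miR-temp32-5p and for miR-temp91-5p. For miR-temp77-5p it was 6, and for miR-temp34-3p 1. Counts of called entries moved as follows. DESeq2 called 2 in liver LOS against control, 4 in liver ART against control, 9 in liver LOS against ART and 3 in muscle. With only the compared liver groups, 1 was called in ART against control and 1 in LOS against ART, and with the replicate block 1 and 1. Same-numbered libraries of 2 groups within a tissue correlated at -0.357 to 0.281. Differently numbered libraries were not compared, so these values cannot show whether the numbers pair LOS, ART and control libraries. The block changed no other count by over 1.5 times.

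Leaving out 1 library at a time gave 0 to 2 calls in liver LOS against control, 0 to 3 in ART against control, 0 to 6 in LOS against ART, 0 to 1 for the sex interaction in tongue and 0 to 2 for LOS by tissue. It gave 25 to 26, 23 to 24 and 18 to 23 in the tissue comparisons and 0 in kidney, muscle and tongue. The same-numbered control libraries of kidney and liver correlated at 0.119 to 0.244, and other tissue pairs at -0.0565 to 0.537, again without differently numbered libraries beside them. Removing scaling factors was added after seeing the data.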
